A study of Homo sapiens with 8 samples.

Results

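Mitochondria keep their own chaperones and proteases, and 10 nuclear genes for these proteins were followed in HCT116, a human colorectal cancer cell line. The genes were chosen by symbol and by their place in the mitochondrial unfolded protein response. All 10 were listed in both deposited tables of read counts, among 42125 genes in the table of TFAP2C KD and 23393 genes in the table of UBA2 KD. Every gene passed the expression filter in both. They fall into the chaperonin (HSPD1 and HSPE1), the mitochondrial Hsp70 system (HSPA9 and DNAJA3), the matrix proteases (LONP1, CLPP and CLPX) and the proteases of the inner membrane (YME1L1, AFG3L2 and OMA1).

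The study asked how SUMOylation and the transcription factor TFAP2C act on enhancers, and mRNA was sequenced from 8 libraries in 4 groups of 2 replicates. All cells were HCT116 that stably carry a Tet-On shRNA against SAE2, another name of UBA2, the catalytic subunit of the SUMO activating enzyme. In the first experiment these cells received a control siRNA (control siRNA) or an siRNA against TFAP2C (TFAP2C KD) for 48 hrs. In the second they received 1 μg/mL of doxycycline (Dox) for 5 days (labelled UBA2 KD) or the DMSO vehicle for 5 days (control). No source says whether replicates were separate cultures, so all p-values measure only the spread between these libraries, which may be technical. Dox was given to one arm only, and Dox itself, an antibiotic of a class known to act on mitochondrial ribosomes, cannot be told apart from the shRNA in this design.

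Total counts ranged from 20785035 to 24465109 in the first experiment and from 18213739 to 20607813 in the second. TFAP2C mRNA was 18.9 and 20.5 CPM (read counts scaled to the size of each library) with control siRNA and 3.46 and 4.30 CPM in TFAP2C KD. UBA2 mRNA was 162 and 146 CPM in the controls and 147 and 153 CPM in the libraries labelled UBA2 KD. The groups overlapped, and no fall of UBA2 mRNA was detectable, with a log2 fold change of -0.036 (95% interval -0.15 to 0.078, edgeR adjusted p = 0.766). Directions in the second experiment are therefore those of the labels, and UBA2 protein was not analysed here. The 2 TFAP2C KD libraries differed from each other more than other replicates did, with a chi-square of 9.09 per degree of freedom over genes, where the other 3 groups had 2.55 to 2.76. Of 6 epithelial markers, EPCAM, CDH1, KRT8, KRT18 and KRT19 were present at 79.0 CPM or more in all libraries, while VIL1 reached at most 0.144 CPM. Of 4 markers of other cell types, PTPRC, COL1A2 and PECAM1 were at most 0.806 CPM, and COL1A1 lay between 14.9 and 47.5 CPM. The 6 epithelial markers summed to 2132 and 2148 CPM in the controls and 2480 and 2388 CPM in the libraries labelled UBA2 KD, and to 2782 and 2891 CPM with control siRNA and 3380 and 3111 CPM in TFAP2C KD. In the libraries labelled UBA2 KD, KRT18 (0.25 in log2), KRT8 (0.18) and EPCAM (0.15) were higher at an edgeR adjusted p under 0.05. CDH1 (0.046) and KRT19 (0.15) did not pass, and VIL1 was too low to be tested. The part of these markers in the results was not tested.

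Most mitochondrial proteins are made in the cytosol, imported unfolded and folded in the matrix. HSPA9 (mortalin, the mitochondrial Hsp70) pulls precursors through the inner membrane and folds them with its J-domain partner DNAJA3, and HSPD1 (Hsp60) with its lid HSPE1 (Hsp10) encloses proteins for folding. LONP1 and the CLPX-CLPP pair degrade matrix proteins, while YME1L1, AFG3L2 and OMA1 cut proteins of the inner membrane, including the fusion factor OPA1. When proteins misfold in the organelle, cells are known to raise nuclear genes for these chaperones and proteases, and this is named the mitochondrial unfolded protein response.

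HSPD1 and HSPE1 are neighbours that are transcribed away from each other. Windows of 250 bases before the start, in RefSeq on GRCh38.p14, were found for 8 of the 10 genes, and for 7 of them a window began at the MANE Select transcript. CLPP and YME1L1 had no entry. The windows of HSPD1 and HSPE1 are shown because the pair shares the DNA between starts that lie 539 bp apart, and those of HSPA9 and LONP1 because these genes rose in the libraries labelled UBA2 KD. Other transcripts of all 4 genes begin further upstream. The windows lie at chr2:197499841-197500090 (minus strand), chr2:197500129-197500378 (plus strand), chr5:138575402-138575651 (minus strand) and chr19:5720147-5720396 (minus strand). Each is written 5′ to 3′ on the strand of its gene, and the capitals mark matches to CACGTG, GAANNTTC and TTCNNGAA.
HSPD1: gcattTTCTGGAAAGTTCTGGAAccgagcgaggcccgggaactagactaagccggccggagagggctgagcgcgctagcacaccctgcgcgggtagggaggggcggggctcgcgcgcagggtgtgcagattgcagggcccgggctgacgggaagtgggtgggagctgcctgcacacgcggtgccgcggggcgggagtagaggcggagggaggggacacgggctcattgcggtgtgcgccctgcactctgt
HSPE1: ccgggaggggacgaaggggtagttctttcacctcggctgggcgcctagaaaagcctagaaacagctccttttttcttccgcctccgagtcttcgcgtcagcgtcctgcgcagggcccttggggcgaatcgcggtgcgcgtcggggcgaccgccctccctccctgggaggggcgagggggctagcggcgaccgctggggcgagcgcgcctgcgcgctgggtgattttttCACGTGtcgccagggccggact
HSPA9: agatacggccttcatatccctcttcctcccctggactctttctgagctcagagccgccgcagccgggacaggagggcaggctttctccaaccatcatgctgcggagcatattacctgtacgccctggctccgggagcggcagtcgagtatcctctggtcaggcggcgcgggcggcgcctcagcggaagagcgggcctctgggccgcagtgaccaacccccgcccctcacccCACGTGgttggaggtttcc
LONP1: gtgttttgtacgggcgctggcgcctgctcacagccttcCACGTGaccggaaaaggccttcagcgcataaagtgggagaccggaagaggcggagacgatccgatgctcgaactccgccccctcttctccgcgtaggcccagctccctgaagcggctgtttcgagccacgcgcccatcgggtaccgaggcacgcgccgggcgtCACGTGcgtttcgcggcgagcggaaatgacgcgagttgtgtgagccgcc

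A total of 8 motifs were searched in both directions, and they were selected with the results known. CACGTG, the E-box bound by MYC, USF and TFE factors, was present in the windows of HSPE1, HSPA9 and LONP1, in that of the other start of HSPD1, and in 6.34% of all 35116 windows of the same length. Counted from the start, it begins at base -22 in HSPE1, -19 in HSPA9, and -212 and -49 in LONP1, and the match at base -88 from the other start of HSPD1 covers the same bases as that of HSPE1. GAANNTTC and TTCNNGAA, arrangements of the unit bound by the heat shock factor HSF1, were present only in HSPD1 among these windows, where they overlap in a run from base -245 to base -228. They occur in 5.78% and 6.62% of all windows. GCCNNNGGC, the site of AP-2 factors such as TFAP2C, was found in the windows of CLPX and OMA1 (at a start other than MANE for OMA1) and in 19.8% of all windows, and the stricter GCCTNAGGC in no member and 0.874% of all. TGATGCAA, bound by ATF4 with C/EBP, and TGACGTCA, bound by CREB and ATF factors, matched no member, and they occur in 0.772% and 1.65% of windows. The palindromic site of NRF1 was found once, at another start of LONP1, and in 1.03% of windows. A match is a description of letters, not of binding.

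The levels of the 10 genes were compared per length, as CPM divided by the kilobases of the gene model in each table. HSPD1 was the highest in both, with 141 to 160 CPM per kb over the 4 libraries of the first experiment and 308 to 327 CPM per kb in the second. HSPA9 came next, with 59.3 to 61.6 and 216 to 258 CPM per kb. OMA1, a protease activated by stress, was the lowest in both, with 5.00 to 5.72 and 11.1 to 12.8 CPM per kb. Between these extremes, LONP1, CLPP, YME1L1, DNAJA3, AFG3L2, CLPX and HSPE1 lay at 11.1 to 34.6 CPM per kb in the first table and 36.1 to 85.1 CPM per kb in the second. Neighbours in the order that overlapped over the 4 libraries were YME1L1 and LONP1, LONP1 and CLPP, and HSPE1 and AFG3L2 in the first, and HSPE1 and LONP1, and DNAJA3 and YME1L1 in the second. The gene models differ between the tables (HSPA9 is 8.24 kb long in the first and 3.59 kb in the second), so levels were not compared across them. The order within a table also depends on these lengths. YME1L1, at 7.3 and 6.3 kb, stood at rank 3 in the first table and rank 6 in the second. HSPD1 and HSPA9 held 58.7% to 60.2% of the summed CPM of the 10 genes in the first experiment and 62.3% to 63.1% in the second.

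**Figure D1:**
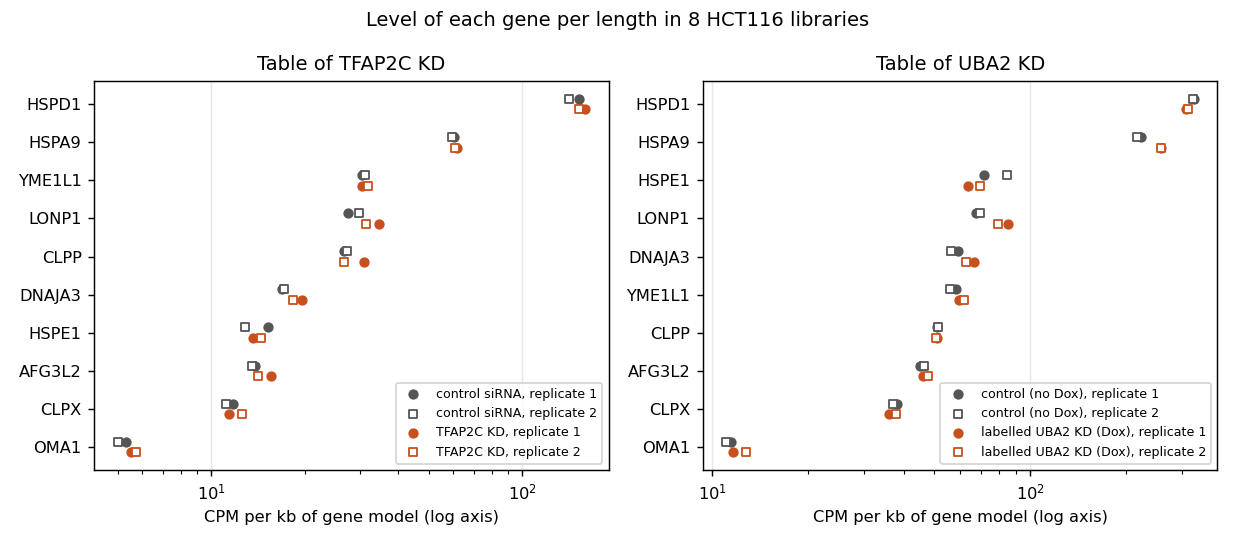
Level of the 10 genes in each library as CPM per kb of gene model on a log axis, with genes ordered by the control mean of each table. Grey points are the 2 control libraries and orange points the 2 knockdown libraries; HSPD1 and HSPA9 stood above, and OMA1 below, all other genes in both tables.

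HSPE1 was measured with a limit. A readthrough gene, HSPE1-MOB4, lies on the same strand and spans all 3467 bp of HSPE1 in the table of UBA2 KD and 3037 of 3310 bp in that of TFAP2C KD, and it was listed at 0 counts in all 8 libraries. MOB4, the other end of the readthrough, had at most 4 counts in the libraries of the second experiment and 299 to 394 in those of the first. HSPD1 also overlaps HSPE1 on the opposite strand, by 278 bp in the hg19 positions of the second table and over all of HSPE1 in the GRCh38 positions of the first, and no source used here gives the strand setting of the counting. Per kb, HSPD1 exceeded HSPE1 9.98 to 11.8-fold in the first table and 3.83 to 4.84-fold in the second. The level of HSPE1, and its ratio to HSPD1, are therefore uncertain. AFG3L2 likewise overlaps TUBB6 on the opposite strand. DAB1 lies on the same strand as OMA1 and was listed at 0 counts in all 8 libraries. It spans 131351 of 131419 bp of OMA1 in the first table and all 72943 bp in the second. Whether this overlap lowered the counts of OMA1 was not tested.

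In the libraries labelled UBA2 KD, HSPA9 and LONP1 were higher and HSPE1 was lower than in the controls, and the other 7 genes did not pass the test. The 2 rises compare with 5.52% of the 13381 genes tested that were called higher, and the 1 fall with 4.47% called lower, at an adjusted p under 0.05 in edgeR's quasi-likelihood test. Scaled by library size alone, 588 of all genes were higher and 805 lower, against 738 and 598 with TMM, while the same 3 of the 10 genes were called. The groups did not overlap for 8 of the 10 genes (5 higher and 3 lower), and this held for 51.3% of all genes. The median log2 fold change of the 10 genes was 0.059, beside -0.00042 for all genes, and it came to 0.029 when replicate 2 of the labelled libraries was left out and to 0.033 (beside -0.026 for all genes) when scaled by library size alone. In bulk libraries, a change in the share of cells and a change of RNA per cell cannot be told apart.

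HSPA9 (hg19, chromosome 5, 137890571 to 137911318) had 799.9 and 777 CPM in the controls and 924 and 926 CPM in the libraries labelled UBA2 KD. Both labelled libraries were above both controls, and they differed from each other by less than the controls did. Its abundance rose by 0.23 on the log2 scale (standard error, SE, 0.041, edgeR adjusted p = 0.000141), a rise of 17.3% with a 95% interval from 10.8% to 24.3%. DNAJA3, the J-domain partner of HSPA9, had 163 and 155 CPM in the controls and 183 and 173 CPM in the labelled libraries. The groups did not overlap, but the log2 fold change of 0.16 (SE 0.053) fell just outside the threshold (edgeR adjusted p = 0.0508). Over the 11 alternatives its adjusted p ranged from 0.0167 (without replicate 2 of the labelled libraries) to 0.374 (without control replicate 2), and it passed under 3 of them.

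LONP1, the ATP-dependent protease of the matrix (hg19, chromosome 19, 5691845 to 5720463), had 234 and 240.4 CPM in the controls and 294 and 273 CPM in the libraries labelled UBA2 KD. Its groups were clearly apart, and the rise was 0.26 on the log2 scale (SE 0.049, edgeR adjusted p = 0.000430), or 19.5% (95% interval 11.4% to 28.1%). The other matrix protease did not show such values. CLPP, the proteolytic subunit, had 58.5 and 58.6 CPM in the controls and 58.2 and 57.8 CPM in the labelled libraries. Its log2 fold change was -0.012 with a 95% interval from -0.14 to 0.12, which is -9.43% to 8.57% in abundance. CLPX, the unfoldase that feeds CLPP, had 95.4 and 92.2 CPM against 89.9 and 94.2 CPM, with overlapping groups and a log2 fold change of -0.026 (95% interval -0.15 to 0.093). Per kb, the ratio of LONP1 to CLPP was 1.33 and 1.36 in the controls and 1.67 and 1.57 in the labelled libraries.

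The chaperonin genes did not follow HSPA9. HSPD1 (hg19, chromosome 2, 198351308 to 198364998) had 1191 and 1178 CPM in the controls and 1120.5 and 1141 CPM in the libraries labelled UBA2 KD. Both labelled libraries were below both controls, yet the log2 fold change of -0.067 (SE 0.039) did not pass (edgeR adjusted p = 0.329). HSPE1 had 67.9 and 80.3 CPM in the controls and 60.5 and 65.8 CPM in the labelled libraries. It fell by 0.23 on the log2 scale (SE 0.071, edgeR adjusted p = 0.0300), and the groups did not overlap. The 2 controls differed from each other by 0.24 on the log2 scale, slightly more than this fall. The call was lost without control replicate 2, where the log2 fold change was -0.10 (adjusted p = 0.592), without replicate 1 of the labelled libraries, at -0.17 (adjusted p = 0.170), in the Wald test of DESeq2 (adjusted p = 0.147) and in a fit of all 8 libraries (adjusted p = 0.195). The calls of HSPA9 and LONP1 held under each of the 11 alternatives run. Per kb, HSPA9 stood to HSPD1 at 0.680 and 0.667 in the controls and at 0.835 and 0.822 in the labelled libraries.

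The genes of the inner membrane proteases did not pass in the libraries labelled UBA2 KD. YME1L1, the protease that faces the intermembrane space, had 369 and 353 CPM in the controls and 376 and 390.5 CPM in the labelled libraries. AFG3L2, the subunit of the protease that faces the matrix, had 144 and 148 CPM against 147 and 152 CPM. OMA1 had 29.5 and 28.5 CPM against 30.0 and 32.9 CPM. The groups overlapped for AFG3L2 and were narrowly apart, with the labelled libraries higher, for YME1L1 and OMA1. The log2 fold changes were 0.086 for YME1L1 (95% interval -0.0078 to 0.18), 0.032 for AFG3L2 (95% interval -0.076 to 0.14) and 0.12 for OMA1 (95% interval -0.047 to 0.28). The lowest count behind these 3 genes was 540 for OMA1, for which counting error alone is 4.30%.

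**Figure D2:**
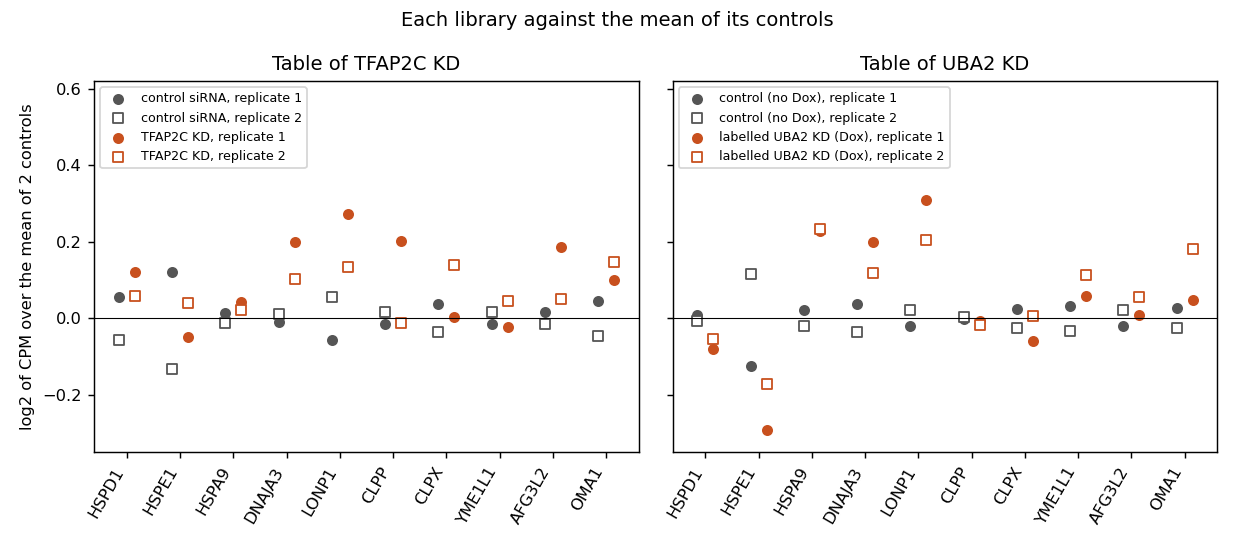
Each library as the log2 of its CPM over the mean of its 2 controls, for the 10 genes in the TFAP2C and the UBA2 experiment. Grey points are control and orange points knockdown libraries; in the UBA2 experiment both orange points of HSPA9 and LONP1 lie above 0.2, and in the TFAP2C experiment replicate 1 of the knockdown lies above replicate 2 for LONP1, CLPP, AFG3L2 and DNAJA3.

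In TFAP2C KD, 0 of the 10 genes passed an adjusted p under 0.05 in edgeR, where 0.26% of the 14991 genes tested were called higher and 0.48% lower. At an unadjusted p under 0.05 in edgeR there was 1, LONP1, while 12.6% of all genes tested fell under it. The Wald test of DESeq2 also called 0. Of the 10 genes, 9 lay above 0 in log2, beside 49.1% of all genes, and their median was 0.094 beside -0.0038 for all genes. With library size alone as the scale, 8 of 10 lay above 0, and the median was 0.065 beside -0.032 for all genes. The groups did not overlap for 6 of the 10, all with TFAP2C KD higher, where 44.7% of all genes had groups apart in either direction. For HSPD1 and HSPA9 the gap was narrow, with the highest control at 626.7 and 497.7 CPM and the lowest knockdown at 627.95 and 500.7 CPM. When counts are divided by total counts instead, the groups of HSPD1 and of HSPA9 overlap. LONP1 (GRCh38, chromosome 19, 5691834 to 5720572) had 139 and 151 CPM with control siRNA and 175 and 159 CPM in TFAP2C KD. The difference of 0.21 in log2 (SE 0.075, edgeR adjusted p = 0.278) was the largest among the 10 genes, and the 2 TFAP2C KD libraries differed from each other by 0.14 on this scale. DNAJA3 had 119 and 121 CPM with control siRNA and 138 and 129 CPM in TFAP2C KD, a difference of 0.15 in log2 (SE 0.070, edgeR adjusted p = 0.397).

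The remaining values in TFAP2C KD were smaller. HSPA9 had 498 and 488 CPM with control siRNA and 507 and 501 CPM in TFAP2C KD, and its interval from -0.11 to 0.17 on the log2 scale allows a rise of up to 12.7%. HSPD1 had 627 and 580.0 CPM against 656 and 628 CPM, a difference of 0.089 in log2 (SE 0.070, edgeR adjusted p = 0.627). HSPE1 had 27.8 and 23.4 CPM against 24.7 and 26.3 CPM, and both TFAP2C KD libraries lay between the controls. Matrix proteases other than LONP1 overlapped between the groups, at 58.5 and 59.8 against 68.0 and 58.6 CPM for CLPP and at 63.8 and 60.7 against 62.3 and 68.5 CPM for CLPX. YME1L1 had 224 and 229 CPM against 223 and 234 CPM. AFG3L2 had 91.3 and 89.3 CPM against 103 and 93.6 CPM, and OMA1 had 19.7 and 18.5 CPM against 20.5 and 21.2 CPM, both without overlap. The log2 fold changes depended on which knockdown library was left out. In such a fit the spread comes from the 2 control libraries alone, with the lone knockdown library assumed to vary like them. Without TFAP2C KD replicate 2, DNAJA3, LONP1, CLPP and AFG3L2 had the largest log2 fold changes of the 10 genes, from 0.19 to 0.28. These values rest on replicate 1, of the pair that differed most. Without TFAP2C KD replicate 1, the log2 fold changes were 0.10 for DNAJA3, 0.14 for LONP1, -0.013 for CLPP and 0.051 for AFG3L2.

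**Figure D3:**
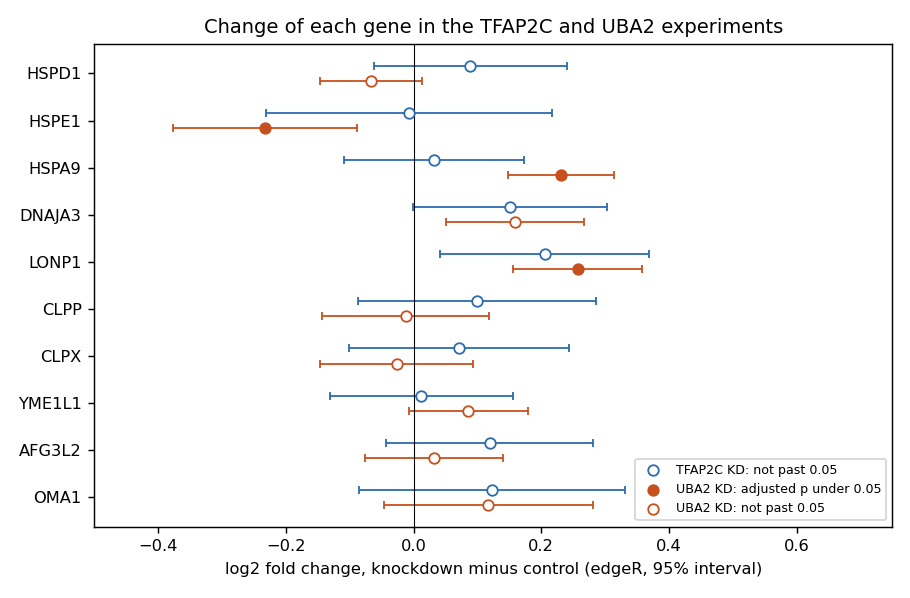
Log2 fold change of the 10 genes, knockdown minus control, with 95% intervals from edgeR, for TFAP2C KD (blue) and the libraries labelled UBA2 KD (orange). Filled points have an adjusted p under 0.05 and are HSPE1 at -0.23, HSPA9 at 0.23 and LONP1 at 0.26, all in the UBA2 experiment.

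All 8 libraries were also fitted jointly (13179 genes), to ask whether a gene responded differently to TFAP2C KD than to the treatment labelled UBA2 KD; values are the former response minus the latter. None of the 10 genes passed an adjusted p under 0.05 in edgeR (0 of 10, and 0 in the Wald test of DESeq2), where 2.37% of all genes did. At an unadjusted p under 0.05 in edgeR there was 1, while 14.1% of all genes fell under it. The gene with the smallest adjusted p was HSPA9, with a difference of -0.21 on the log2 scale (SE 0.069, edgeR adjusted p = 0.153). Without TFAP2C KD replicate 2 this difference was also -0.21 and passed (adjusted p = 0.0321). HSPD1 lay above its controls in both TFAP2C KD libraries, in replicate 2 only narrowly (627.95 against 626.7 CPM in control siRNA replicate 1). In both labelled libraries HSPD1 lay below its controls. The difference for HSPD1 of 0.14 (95% interval -0.016 to 0.30) did not pass (edgeR adjusted p = 0.411). For LONP1 the difference was -0.065 (95% interval -0.26 to 0.13). The experiments differed in treatment, time and gene models of the counting, and these cannot be told apart from the knockdowns in these values.

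The wider pathway was followed in 5 lists of 56 genes, of which 53 were tested in each experiment. In TFAP2C KD none of the 53 passed in edgeR (0 of 53, and 0 in the Wald test of DESeq2). At an unadjusted p under 0.05 in edgeR there were 5, while 12.6% of all genes tested fell under it. In the libraries labelled UBA2 KD 7 were higher and 1 was lower, beside 5.52% and 4.47% of all genes tested. Among 9 genes for cochaperones of HSPA9 and for the Hsp90 homolog TRAP1, 8 were tested in the second experiment and 2 rose. These were GRPEL2, a nucleotide exchange factor of HSPA9, from 103 and 92.8 CPM to 118 and 123 CPM (0.30 in log2, SE 0.059, edgeR adjusted p = 0.000569), and TIMM44, which tethers HSPA9 to the import channel, from 92.4 and 86.9 CPM to 111 and 104 CPM (0.26, SE 0.059, edgeR adjusted p = 0.00287). The call of TIMM44 was lost without control replicate 2. GRPEL1, the paralog of GRPEL2, had a log2 fold change of 0.046 (SE 0.055) and TRAP1 one of 0.071 (SE 0.045), and neither passed. TIMM44 and TIMM10, as well as the genes named without a call in these lists, were picked after their values were seen.

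Of 12 other mitochondrial proteases, IMMP2L, a subunit of the inner membrane signal peptidase, rose from 7.21 and 5.80 CPM to 8.99 and 8.97 CPM (0.47 in log2, SE 0.14, edgeR adjusted p = 0.0241), and the other 11 did not pass. None of 8 scaffolds and substrates of these proteases passed, among them PHB at -0.076 and OPA1 at 0.027. Of 16 import translocase genes tested, TIMM10, a chaperone of the intermembrane space, rose by a log2 fold change of 0.28 (adjusted p = 0.0328). TIMM17A, a channel subunit that YME1L1 is known to degrade, fell by 0.20 on the log2 scale (SE 0.056, adjusted p = 0.0182), from 149 and 149 CPM to 123 and 137 CPM. The Wald test of DESeq2 called none of IMMP2L, TIMM10 and TIMM17A (0 of 3). Among fits with a library left out, IMMP2L passed only without control replicate 1, TIMM10 only without control replicate 2 or replicate 1 of the labelled libraries, and TIMM17A only without replicate 2 of the labelled libraries.

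The largest changes that passed in these lists were among 10 regulators of the stress response. Of these regulators, 9 were tested and 3 rose in the libraries labelled UBA2 KD, where 5.52% of all genes rose. DDIT3 (CHOP) had 12.4 and 12.9 CPM in the controls and 31.6 and 32.6 CPM in the labelled libraries, a rise of 1.34 in log2 (SE 0.091, edgeR adjusted p = 8.53e-13). ATF4, the transcription factor that is translated when eIF2α is phosphorylated, rose from 217 and 227 CPM to 368 and 359 CPM (0.71, SE 0.048, edgeR adjusted p = 6.82e-13). CEBPB, a partner of both, rose by 0.71 (SE 0.061, edgeR adjusted p = 1.73e-10). ATF5, the factor most often tied to the mitochondrial response in mammals, had a log2 fold change of -0.054 (SE 0.069), and DELE1, which relays mitochondrial stress after it is cut by OMA1, had 0.040 (SE 0.069). HSF1 had 0.046 (SE 0.057). These 3 did not pass. In TFAP2C KD the median of the tested regulators was -0.024, with DDIT3 at -0.20 (SE 0.13). That median was 0.019 without control siRNA replicate 2 and -0.079 without control siRNA replicate 1.

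In TFAP2C KD, 15 of 15 tested import translocase genes were above 0 in log2, beside 49.1% of all genes, although none passed (0 of 15). The groups overlapped for most of these genes, where 44.7% of all genes had groups apart in either direction. The list was chosen with earlier results of these data known. Their median was 0.11, against -0.0038 over all genes. Scaled by library size alone, 14 of 15 were above 0, and the median was 0.078 beside -0.032 for all genes. In the fit of all 8 libraries 14 of 15 were above 0. Without TFAP2C KD replicate 1, 12 of 15 were above 0, with a median of 0.054. Without TFAP2C KD replicate 2 it was 14 of 15, with a median of 0.15. Leaving out control siRNA replicate 1 gave 13 of 15 and a median of 0.13, and leaving out control siRNA replicate 2 gave 14 of 15 and 0.054. The median of the 10 chaperones and proteases was 0.055 without TFAP2C KD replicate 1, 0.11 without TFAP2C KD replicate 2 and 0.049 without control siRNA replicate 2. In the libraries labelled UBA2 KD, 10 of 16 import genes lay above 0, beside 49.9% of all genes, with a median of 0.026. These 16 include TOMM40, which was not listed in the TFAP2C experiment.

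**Figure D4:**
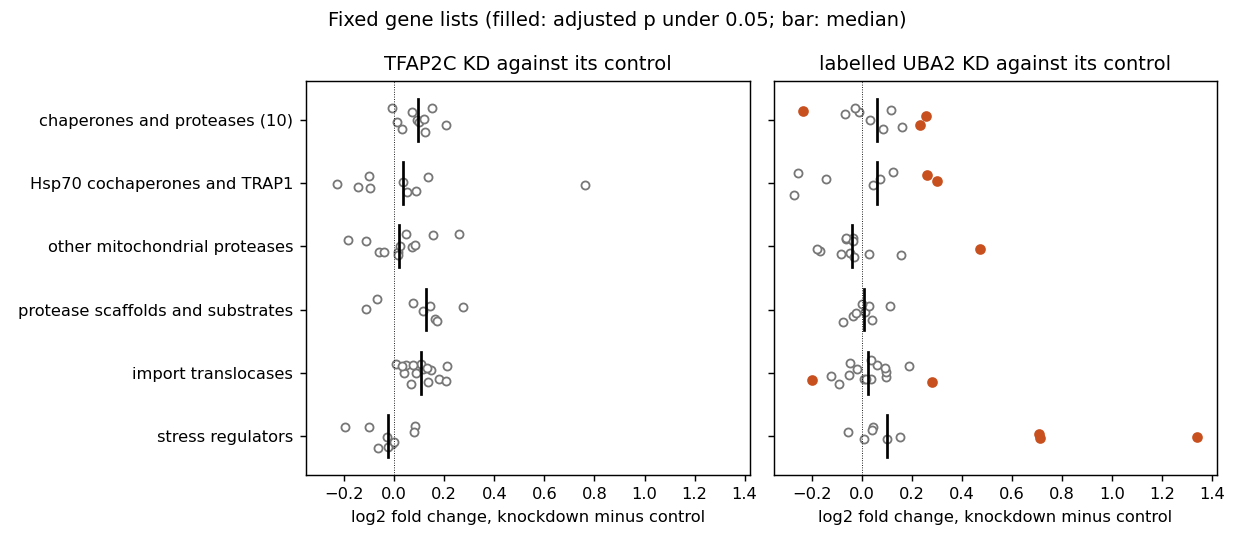
Log2 fold changes, knockdown minus control, of the 10 chaperones and proteases and of 5 lists of the surrounding pathway in both experiments, with a bar at each median. Filled points have an adjusted p under 0.05 in edgeR; in the UBA2 experiment the 3 stress regulators ATF4, CEBPB and DDIT3 lie at 0.71 or more, and in the TFAP2C experiment no point is filled.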

How the data were processed

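Reads were mapped by the authors to hg19 using TopHat2, and HTSeq (version 0.9.1 per the submitters' processing notes) counted them per RefSeq gene. They deposited raw read counts per gene in 1 table for each experiment, without normalization. The table of TFAP2C KD has GRCh38 positions and Ensembl gene types, which differs from these notes. The tables were therefore fitted separately, and genes were joined by symbol.

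Genes with low counts were removed by filterByExpr of edgeR 4.0.16 (R 4.3.3), and libraries were scaled by TMM. Each knockdown was compared with its control by the quasi-likelihood test, two-sided, with Benjamini-Hochberg adjustment over all genes tested and no replicate term. CPM use the scaled library sizes. The common biological variation (BCV) came to 6.28% in the TFAP2C and 3.56% in the UBA2 experiment. With 2 libraries against 2, an exact permutation test of a single gene cannot pass 0.05 (smallest p 0.333), so the fit across all genes was used. The code was tested on simulated data. Alternatives included the Wald test of DESeq2 1.42.0.

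All 10 members are named, with up to 5 list genes passing in each direction by size of change. Members and lists were chosen with earlier results of these data known.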

Additional observations from a re-analysis of the deposited data

How the results depend on the processing

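Calls at an adjusted p under 0.05 were recomputed under 11 alternatives for each knockdown and 14 for the difference, plus a crossed block for TFAP2C KD that was added after seeing the data. The count of all genes called, 111 in TFAP2C KD, was 398 without a filter, 172 with the replicate block, 467 with the crossed replicate block, 271 in a fit of all 8 libraries and 49 (without control siRNA replicate 1) to 2825 (without TFAP2C KD replicate 2) with each library left out. The count in the libraries labelled UBA2 KD, 1336, was 673 in the Wald test of DESeq2, 696 in the fit of all 8 libraries and 833 (without control replicate 2) to 1271 with each library left out. Of the 10 genes, 0 to 4 were called in TFAP2C KD, 2 to 4 in the libraries labelled UBA2 KD and 0 to 1 for the difference with each library left out. The cause of these shifts was not tested.

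Same-numbered libraries deviated from their group means with a correlation across genes of -0.139 in TFAP2C KD and 0.0744 in the UBA2 experiment, so they were taken to share only a number. The replicate block left 0 of the 10 genes called in TFAP2C KD and the same 3 in the libraries labelled UBA2 KD, among 1308 of all genes.

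Some directions turned, in genes that did not pass with all libraries included. YME1L1 in TFAP2C KD was -0.016 with library size only and -0.019 to 0.047 with each library left out. Leaving out each library gave -0.13 to 0.13 for HSPE1 and -0.013 to 0.21 for CLPP (0.099 with all libraries) in TFAP2C KD, and -0.059 to 0.0068 for CLPX in the libraries labelled UBA2 KD. The difference between the knockdowns was 0.0038, 0.00018, 0.0029 and 0.00018 for OMA1 with library size only, the Wald test of DESeq2, no filter and at least 10 counts in every library. With each library left out it was -0.064 to 0.060 for OMA1, -0.062 to 0.026 for DNAJA3 and -0.12 to 0.0097 for LONP1.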

Other observations

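In the table of UBA2 KD, 77 of 123 genes described as readthrough were at 0 counts in all 4 libraries, beside 25.2% of all 23393 genes. HSPE1-MOB4 was one of them. Apart from HSPE1-MOB4, no pseudogene or copy named after HSPD1, HSPE1 or HSPA9 was listed in either table, so reads of processed copies of HSPD1, HSPE1 or HSPA9 could not be followed.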
